A study of Mus musculus with 7 samples.

Results

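The genes described here encode the peptide hormones of the pancreatic islet: Ins1, Ins2 and Iapp of the β-cells, and Gcg, Sst, Ppy, Pyy and Ghrl of the other endocrine cells. They were chosen by name, with earlier results of these data known, and every array probe whose transcript accession belongs to 1 of them was kept. This gave 8 of the 22911 gene symbols that could be assigned and 10 of the 56605 probes: 1 probe for each gene except Ghrl, which had 3. The comparison asked whether hormone transcripts differ in islets whose β-cells lack the signalling protein WNT4.

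Expression was measured in 7 islet samples of male mice on single-colour Agilent oligonucleotide arrays, with 50 ng of RNA labelled per array. The 4 Wnt4βKO samples (replicates 1 to 4) came from mice with the Pdx1CreER transgene and floxed Wnt4 on both alleles (Wnt4fl/fl), and the 3 controls (replicates 2 to 4) were Wnt4fl/fl littermates without the transgene, whose genotype the labels also give as WT. Mice of both groups had been crossed to C57BL/6J, received tamoxifen (50 mg/mL) by gavage in 2 doses at 4 to 5 weeks of age and were killed at 7 weeks. The sample titles also carry the code w11, whose meaning is not stated. Pdx1CreER is a tamoxifen-inducible Cre recombinase under the Pdx1 promoter, which is active in β-cells and also in some δ-cells, and no group carried Cre without the floxed alleles, so that an effect of Cre itself and the loss of Wnt4 cannot be told apart. The islets were used whole and hold all endocrine cell types together with vessel, stromal, immune and residual exocrine cells. The labels do not say whether 1 or more mice went into a sample, so p-values measure the spread between these samples.

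Each islet hormone is made as a longer precursor that is cut, trimmed and in part amidated while it moves through the secretory granule. β-cells make insulin, which lowers blood glucose and which the mouse encodes in the Ins1 and Ins2 genes, and store amylin (Iapp) in the same granules. α-cells make glucagon (Gcg), which raises blood glucose, δ-cells make somatostatin (Sst), which restrains its neighbours, and PP-cells make pancreatic polypeptide (Ppy) and, with other islet cells, the related peptide YY (Pyy). Ghrelin (Ghrl) is made by ε-cells, which become rare in the islet after birth, and far more by the stomach.

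Stretches upstream of the transcription start are shown for Ins1, the only hormone past an unadjusted threshold in the reported fit. Those of Gcg and Sst are shown because both genes passed it only when 1 array was left out. That of Ghrl is shown because it spread most between samples. They are RefSeq sequences of build GRCm38.p6, 250 bases ending just before the start (for Ghrl the outermost of 4 starts), written 5′ to 3′ on the gene's strand. Capitals mark matches on either strand to 4 short motifs: TAAT, the core of many homeodomain sites; the E-box CANNTG; the cAMP response element TGACGTCA; and TATAAA, the core of the TATA box.

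Ins1, chr19:52264047-52264296, plus strand: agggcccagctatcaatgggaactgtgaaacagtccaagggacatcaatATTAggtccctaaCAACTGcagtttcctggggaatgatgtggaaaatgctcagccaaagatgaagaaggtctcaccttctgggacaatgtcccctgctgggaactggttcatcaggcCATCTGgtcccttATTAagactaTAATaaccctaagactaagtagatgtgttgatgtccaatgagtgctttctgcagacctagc
Gcg, chr2:62483654-62483903, minus strand: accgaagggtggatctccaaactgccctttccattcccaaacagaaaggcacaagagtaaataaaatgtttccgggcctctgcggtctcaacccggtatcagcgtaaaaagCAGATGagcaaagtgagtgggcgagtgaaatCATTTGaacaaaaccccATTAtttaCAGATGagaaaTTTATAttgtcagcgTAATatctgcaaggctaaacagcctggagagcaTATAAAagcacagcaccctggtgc
Sst, chr16:23890845-23891094, minus strand: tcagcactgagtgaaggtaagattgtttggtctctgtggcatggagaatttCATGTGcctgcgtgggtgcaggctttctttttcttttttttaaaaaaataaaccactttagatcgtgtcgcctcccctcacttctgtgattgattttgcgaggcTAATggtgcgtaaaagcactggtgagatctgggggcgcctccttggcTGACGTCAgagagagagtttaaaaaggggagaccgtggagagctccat
Ghrl, chr6:113719912-113720161, minus strand: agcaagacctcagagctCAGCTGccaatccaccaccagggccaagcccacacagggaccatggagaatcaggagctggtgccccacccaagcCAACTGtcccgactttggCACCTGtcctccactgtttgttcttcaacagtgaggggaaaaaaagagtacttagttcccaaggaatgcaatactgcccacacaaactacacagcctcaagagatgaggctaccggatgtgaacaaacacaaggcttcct

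No marked match overlapped another in these 4 stretches. Of the 8 hormone genes, 7 had an entry (not Ins2). TAAT was found in 4 of the 7 and in 54.9% of all 32851 upstream stretches of the table, and CANNTG in 6 of the 7 and in 66.2% of all. The full TGACGTCA was found only upstream of Sst, from 48 to 41 bases before the start, against 1.55% of all stretches. TATAAA or its reverse complement was found upstream of Gcg and Ppy, against 12.4% of all. A match is a description of the letters and not a site shown to be bound.

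On each array 45.5% to 49.0% of the gene spots stood well above background, no spot was saturated, and all arrays lay on 1 slide. Signal was read on 2 scales. The first was the log2 of the background-corrected median signal after quantile normalization, on which an offset of 50 lifts low signals towards a floor. The second was the log2 of the scanner's processed signal over each array's 75th percentile, which has no such offset and no shared ceiling. Processed signals printed for single arrays are not scaled in this way. The 75th percentile ran from 44.4 (control replicate 2) to 82.4 (control replicate 3), so brighter arrays read higher in them. Wnt4, the targeted gene, had a log2 signal of 11.56, 11.17 and 11.77 in the controls and of 11.30, 10.80, 11.04 and 10.92 in the Wnt4βKO samples, a log2 fold change of -0.49 ± 0.17 (SE, adjusted limma p 0.651), with 1 Wnt4βKO array inside the control range; whether its probe lies in the deleted part was not determined. The mean acinar signal differed between the groups. The mean log2 signal over 31 tested acinar genes was 13.01 to 13.12 in the controls and 11.74 to 12.85 in the Wnt4βKO samples. None of these genes passed adjustment, 4 of them had a positive fold change, and the content of acinar cells was not measured.

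None of the 8 hormone genes differed between Wnt4βKO and control islets after adjustment. Ins1 was 1.22-fold higher on the quantile-normalized scale, with a p that passed only unadjusted, and the fold changes of Ins2, Iapp, Gcg, Sst, Ppy and Pyy lay between -0.23 and 0.08 on the log2 scale. Ghrl had the widest spread of all: its processed signal ran from 1217 to 3.32 between Wnt4βKO samples of the same genotype. At a limma p of 0.05 after Benjamini-Hochberg adjustment, 0 of the 10 hormone probes passed on either scale, where 0.0153% of all 26151 tested probes passed on the quantile-normalized scale and 0.0268% on the processed scale. At an unadjusted limma p of 0.05, 1 of 10 passed on the first scale (background 6.96%) and 0 of 10 on the second (background 6.83%). With 10 probes a share of 1 in 10 lies near the background.

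**Figure D1:**
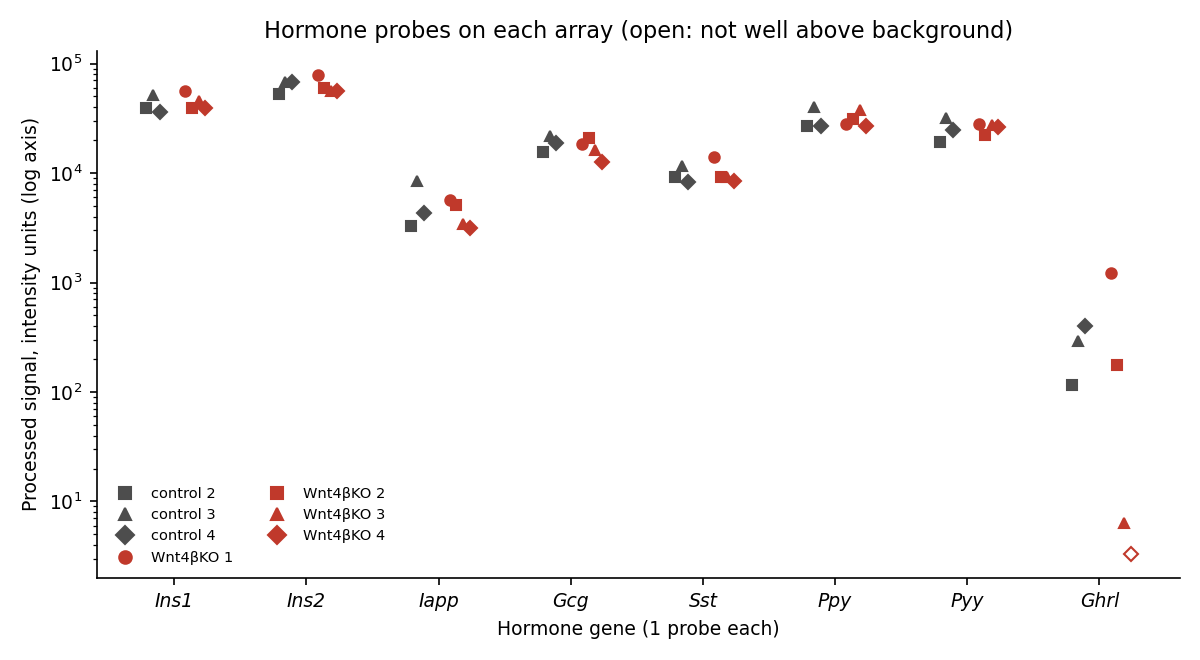
Processed signal (intensity, log axis) of 1 probe for each hormone gene on each of 3 control arrays (grey) and 4 Wnt4βKO arrays (red), with a marker shape for each replicate number and an open marker where the spot was not well above background. Probes differ in brightness per transcript, so genes are not to be compared with each other. The signal is not scaled between arrays, whose 75th percentiles ran from 44.4 to 82.4, so small differences within a gene also hold array brightness. The groups overlap for every gene here, and the Wnt4βKO points of Ghrl run from 1217 down to 3.32.

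The insulin genes were among the brightest probes of every array. In processed signal the controls (replicates 2, 3 and 4, in this order here and below) read 39172, 51554 and 36376 for Ins1, and the Wnt4βKO samples (replicates 1 to 4) read 56353, 38933, 45328 and 39490. On this scale, where the array's 75th percentile sets the unit, 1 of 4 Wnt4βKO arrays lay above all controls, and the log2 fold change was 0.17 ± 0.22 (SE, unadjusted limma p 0.475). After quantile normalization the log2 signal of Ins1 was 15.26, 15.26 and 15.06 in the controls and 15.59, 15.33, 15.59 and 15.42 in the Wnt4βKO samples. All 4 Wnt4βKO arrays then lay above all 3 controls. These values follow the probe's place on each array, which in median signal was 6, 6 and 10 in the controls. That place was 3, 5, 3 and 4 in the Wnt4βKO samples, so it also depends on other very bright probes. The groups were also apart and higher for 3.54% of all tested probes, and apart in either direction for 7.24%.

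The quantile-normalized log2 fold change of Ins1 was 0.29 ± 0.10 (SE), with a 95% interval from 0.06 to 0.52, an unadjusted limma p of 0.0200 and an adjusted p of 0.632. Over all tested probes 3.33% were higher at that unadjusted threshold. With cyclic loess in place of quantile normalization the fold change was -0.03. The unadjusted limma p was 0.0579 without Wnt4βKO replicate 1 and 0.0831 without control replicate 4. In bulk islets, more cells of a type and more RNA per cell cannot be told apart.

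The processed signal of Ins2, the insulin gene that the mouse shares with other mammals, was 53102, 67794 and 67271 in the controls and 79051, 59399, 56555 and 55619 in the Wnt4βKO samples. The group ranges overlapped, with Wnt4βKO replicate 1 the highest and control replicate 2 the lowest of all 7 before scaling. Scaled to the 75th percentile, Wnt4βKO replicate 1 was again the highest (log2 10.33), and control replicate 3 was the lowest (9.68). The probe held place 1 to 3 in processed signal on every array and place 1 or 2 in median signal. Quantile normalization gives each place a fixed value, so that its log2 signal took only 15.67 or 15.82 on each array and could not vary further. On the processed scale the log2 fold change was 0.07 ± 0.23 (SE), with a 95% interval from -0.45 to 0.59. The Ins1 and Ins2 transcripts are close in sequence, and whether either probe also binds the other transcript was not determined.

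Iapp encodes amylin, which is co-released with insulin. Its processed signal was 3281, 8491 and 4271 in the controls and 5718, 5094, 3406 and 3164 in the Wnt4βKO samples. Control replicate 3 was the highest and the groups overlapped, although 2 Wnt4βKO arrays lay below all controls on both normalized scales. The log2 fold change of Iapp was -0.23 ± 0.34 (SE, 95% interval from -1.02 to 0.55) after quantile normalization and -0.15 ± 0.25 on the processed scale. It was 0.12 without control replicate 3.

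**Figure D2:**
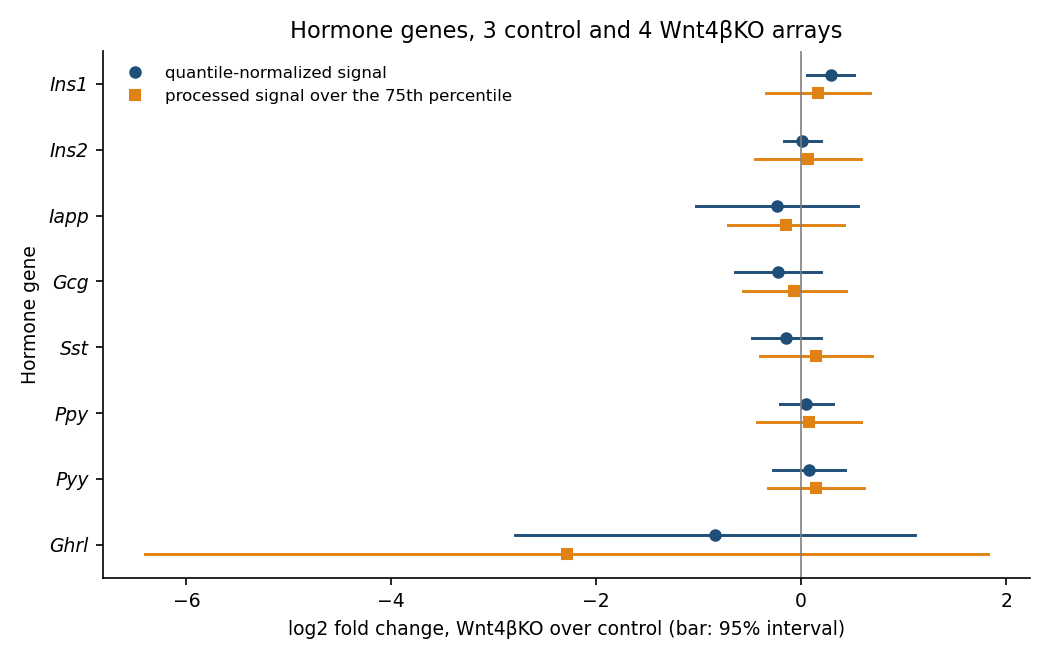
Log2 fold change of each hormone gene, Wnt4βKO over control, with its 95% interval from limma over 3 control and 4 Wnt4βKO arrays, on the quantile-normalized scale (circles) and on the processed scale (squares). Every interval crosses 0 except that of Ins1 after quantile normalization, and the interval of Ghrl is the widest on both scales.

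The hormones of the α-cell and the δ-cell lay lower on the quantile-normalized scale without passing the test. The processed signal of Gcg was 15688, 21622 and 18672 in the controls and 18403, 20894, 16122 and 12663 in the Wnt4βKO samples. Before scaling, Wnt4βKO replicate 4 was the lowest of all, and the other 3 lay within the control range. Scaled to the 75th percentile, replicate 4 was also the lowest (log2 8.01), and Wnt4βKO replicate 2 (8.51) lay above all controls. The quantile-normalized log2 fold change was -0.23 ± 0.18 (SE, 95% interval from -0.65 to 0.19, unadjusted limma p 0.245), and it was -0.07 ± 0.22 on the processed scale.

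For Sst, the processed signal was 9151, 11549 and 8243 in the controls and 14096, 9197, 9148 and 8383 in the Wnt4βKO samples. Wnt4βKO replicate 1 was the brightest, and the other 3 lay within the control range. The log2 fold change was -0.14 ± 0.14 (SE, unadjusted limma p 0.346) after quantile normalization and 0.14 ± 0.24 on the processed scale, so that its direction depended on the scale. Both genes passed an unadjusted limma p of 0.05 when control replicate 4 was left out, at a log2 fold change of -0.43 for Gcg and of -0.32 for Sst. Their adjusted limma p values were then 0.632 and 0.608, the lowest of each gene over all alternatives, of which the highest rounded to 1. Control replicate 4 had the lowest quantile-normalized Sst signal of all 7 arrays (13.25).

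Ppy and Pyy, which lie beside each other in the genome and encode related peptides, had fold changes near 0. The processed signal of Ppy was 27125, 39941 and 26802 in the controls and 27910, 31078, 37922 and 26787 in the Wnt4βKO samples. The groups overlapped, with 1 bright array in each before scaling. Scaled to the 75th percentile, the highest control was replicate 2 (log2 9.26) and the highest Wnt4βKO array replicate 3 (9.40). Its log2 fold change was 0.05 ± 0.11 (SE, 95% interval from -0.20 to 0.31) after quantile normalization and 0.07 ± 0.22 on the processed scale. For Pyy the processed signal was 19278, 31565 and 24856 in the controls and 27950, 22280, 27250 and 26301 in the Wnt4βKO samples. Before scaling, the controls held both the lowest and the highest array. The log2 fold change of Pyy was 0.08 ± 0.15 (SE, 95% interval from -0.27 to 0.43) and 0.14 ± 0.21 on the 2 scales. Scaled to the 75th percentile, 3 of 4 Wnt4βKO arrays lay above all controls. Control replicate 3 was then the lowest array (log2 8.58) and Wnt4βKO replicate 4 the highest (9.07).

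Ghrl had a wider spread between samples than the other hormones. On its brightest probe (A_55_P2022399) the controls read 116, 292 and 403 in processed signal, and the Wnt4βKO samples 1217, 177, 6.42 and 3.32. The Wnt4βKO samples thus held the highest array of all and both of the lowest, and replicate 4 was not well above background. The other probes gave the same picture: A_55_P2506805 read 132, 281 and 337 in the controls and 1048, 193, 8.35 and 3.44 in the Wnt4βKO samples, and A_52_P675556 read 26.2, 50.3 and 47.7 against 177, 39.2, 4.03 and 1.30. On the last probe neither Wnt4βKO replicate 3 nor 4 was well above background. The probes of 1 gene share its RNA and are not separate evidence on the samples.

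On the processed scale the Wnt4βKO arrays spanned 8.19 log2 units for A_55_P2022399, 7.92 for A_55_P2506805 and 6.77 for A_52_P675556, where the median span over all tested probes was 0.78. Over all 7 arrays these spans held place 13, 14 and 36 of 26151. The other 7 hormone genes spanned 0.35 to 0.62 log2 units among the Wnt4βKO arrays. Among the controls the brightest Ghrl probe spanned 1.46 units. A small absolute difference gives a large log2 span near background, which these places do not correct for.

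**Figure D3:**
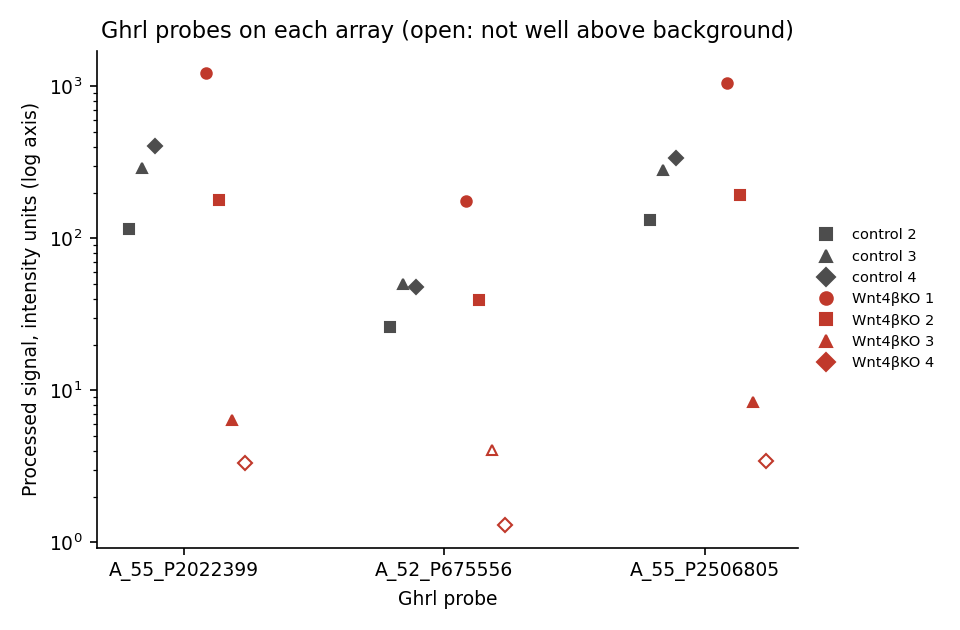
Processed signal (intensity, log axis) of the 3 Ghrl probes on each of 3 control arrays (grey) and 4 Wnt4βKO arrays (red), with open markers for spots not well above background. On every probe Wnt4βKO replicate 1 lies above all controls, and replicates 3 and 4 lie below all controls.

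With such a spread the group means of Ghrl could not be told apart. The quantile-normalized log2 fold change of A_55_P2022399 was -0.84 ± 0.83 (SE, 95% interval from -2.79 to 1.11, unadjusted limma p 0.346), and those of A_55_P2506805 and A_52_P675556 were -0.70 and 0.01. On the processed scale, which has no offset, the 3 were -2.29 ± 1.80, -2.16 ± 1.72 and -1.45 ± 1.41 (SE). The scanner's lowest signals stay positive: A_52_P675556 read 1.30 in Wnt4βKO replicate 4, where the median signal was 19 and the local background 20. Without Wnt4βKO replicate 1 the quantile-normalized value of Ghrl was -1.57, with an unadjusted limma p of 0.00906 and an adjusted p of 0.725 (lowest over the alternatives 0.707, highest rounding to 1). That array was also the lowest of the 7 in acinar genes, with a mean log2 signal of 11.74, and in duct genes, with 7.61; Wnt4βKO replicate 4, where Ghrl was not well above background, was second lowest in both, at 12.09 and 7.74. With the acinar mean as a covariate the log2 fold change of Ghrl was -2.01 (unadjusted limma p 0.111).

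The difference in Ghrl was not the same in the 2 rows of the slide. In slide row 1, which held control replicate 4 and Wnt4βKO replicates 1 and 2, the Wnt4βKO mean of Ghrl was 0.09 log2 units above the control. In row 2, with control replicates 2 and 3 and Wnt4βKO replicates 3 and 4, it was -1.94 from the control mean. Ins1 was higher in Wnt4βKO samples in both rows, by 0.40 and 0.25, whereas the differences of Iapp (0.60 and -0.85), Gcg (0.17 and -0.43), Sst (0.19 and -0.31) and Pyy (-0.18 and 0.32) changed sign between rows. Those of Ppy were 0.04 and 0.10, and those of Ins2 were 0 and -1.98e-05. All these differences are on the quantile-normalized scale, where Ins2 took only fixed values. On the processed scale Gcg did not change sign between rows (-0.02 and -0.16), whereas Ins2 did (-0.06 and 0.11). Sst was then at 0.38 and -0.03. The part of slide position in these values was not tested beyond a fit with the row as a block, which left Ins1 at 0.31 and Ghrl at -1.13.

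Since the scaling of an array cancels in a ratio of 2 of its probes, each hormone was also expressed relative to Ins2 on the same array, from the processed signal. Among the 7 ratios none differed between the groups by a two-sided exact permutation test over the 35 regroupings, whose smallest possible p is 0.0286. The log2 ratio of Ins1 to Ins2 was -0.57 ± 0.27 (SD, n = 3) in the controls and -0.48 ± 0.12 (SD, n = 4) in the Wnt4βKO samples (exact p = 0.629). The difference, Wnt4βKO minus control, was -0.22 for Iapp (exact p = 0.571), -0.14 for Gcg (exact p = 0.457), 0.07 for Sst (exact p = 0.743), 0.00 for Ppy (exact p = 1) and 0.07 for Pyy (exact p = 0.686). For Ghrl it was -2.36 (exact p = 0.371), with the log2 ratio running from -14.03 to -6.02 in the Wnt4βKO samples and from -8.84 to -7.38 in the controls. Adjusted over the 7 ratios every p was 0.867 or above. A ratio shows unequal change within an array, not that either transcript stayed constant.

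**Figure D4:**
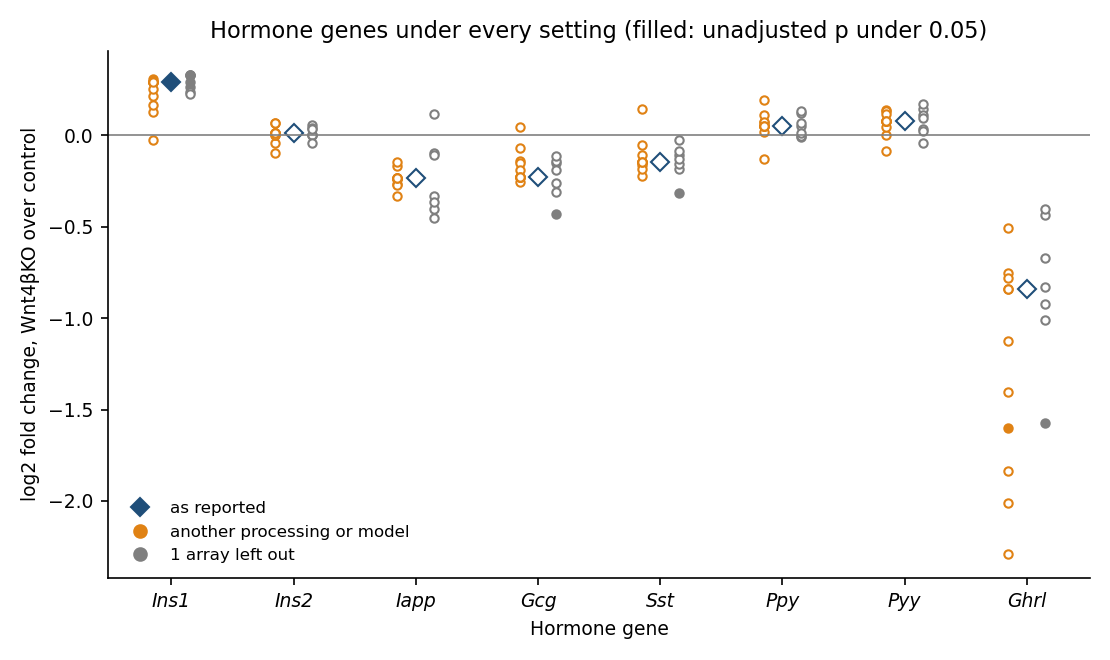
Log2 fold change of each hormone gene, Wnt4βKO over control, as reported (diamonds), under each other processing or model (orange) and with each array left out in turn (grey), filled where the unadjusted limma p was under 0.05. Ins1 lies above 0 in every setting except cyclic loess (-0.03), and Ghrl lies below 0 in every setting, between -2.29 and -0.40.

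Over the 7 arrays, the hormones did not move as a group. On the processed scale Ins1 and Sst ran most closely together (Pearson's r = 0.92), and the pair least alike was Iapp and Pyy (r = -0.80). After quantile normalization the same pairs had r = 0.14 and r = -0.57. These are descriptions over 7 arrays that share their scaling. Among 11886 genes measured above background on all arrays, the one most like Ghrl after quantile normalization was Tlr9, a receptor for microbial DNA (r = 0.999, and 0.961 on the processed scale), followed by Farp1 and Fgfbp3 (both r = 0.970). Tlr9 spanned 7.21 to 8.03 log2 units, against 5.92 to 9.53 for Ghrl. For the other 7 hormones the highest r lay between 0.968 and 0.987 after quantile normalization, and those genes had r from 0.08 to 0.92 on the processed scale. Each is the highest of 11886 values over 7 arrays, and no value for chance was computed.

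Genes of the same pathways were examined on 14 lists with 191 different genes, of which 162 were tested. At an unadjusted limma p of 0.05, 29 of them passed, 8 higher and 21 lower, or 17.9%. Taken over all 13666 tested genes by their brightest probe, 8.94% passed, 4.51% higher and 4.43% lower, and the median log2 fold change was 0.01. Whether passing or not, 7126 of these 13666 genes had a positive fold change and 6540 a negative one. After adjustment 1 of the 162 passed, Slc2a2. Acinar genes made up 10 of the 21 that were lower. Of the 24 genes past the unadjusted threshold that the naming rule picked from these lists, 8 passed it with each array left out in turn. With the acinar mean as a covariate 2 passed it, Pomc and Slc2a2, and 615 of all 26151 tested probes did, against 1821 without the covariate. The acinar genes among the 24 entered that mean, which was lower in every Wnt4βKO sample than in any control. That fit therefore cannot separate the acinar mean from the genotype.

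Of 12 tested enzymes and chaperones that turn prohormones into hormones, 9 had a positive fold change, against 7126 of all 13666 tested genes. The unadjusted threshold was passed by 2 of the 12, and the list median was 0.18 on the log2 scale. Pam, which amidates peptide ends such as those of amylin and pancreatic polypeptide, was higher by 0.50 ± 0.17 (SE) on the log2 scale (adjusted limma p 0.654). Pcsk1n, which encodes proSAAS, an inhibitor of a prohormone convertase, was higher by 0.40 ± 0.17 (adjusted limma p 0.709). The convertases themselves did not pass, with -0.29 for Pcsk1 and 0.26 for Pcsk2, nor did carboxypeptidase E (Cpe, 0.11). Mboat4, which acylates ghrelin, was not tested because its probes were too dim. On the processed scale neither Pam nor Pcsk1n passed, and with the acinar mean as a covariate their log2 fold changes were 0.08 and 0.0041 (unadjusted limma p 0.545 for Pam and higher for Pcsk1n).

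The granule proteins that travel with the hormones held no gene past the unadjusted threshold among 9 tested, with a median of -0.06. Of these, 3 had a positive and 6 a negative log2 fold change. The largest were those of Vgf (-0.62) and Ptprn (-0.57). The granins Chga, Chgb and Scg2 had log2 fold changes of 0.19, -0.03 and 0.16. The zinc transporter Slc30a8, which loads insulin granules, had 0.11. Among activators of the insulin genes, Pdx1, Mafa and Neurod1, which bind the insulin promoter, had log2 fold changes of -0.01, 0.10 and -0.04, and did not pass the unadjusted threshold.

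Of 15 other peptide genes that islet cells can use, 4 passed the unadjusted threshold, 2 in each direction. Gal, which encodes the inhibitory neuropeptide galanin, had a log2 signal of 9.84 ± 0.32 (SD, n = 3) in the controls and 8.48 ± 0.73 (SD, n = 4) in the Wnt4βKO samples, a log2 fold change of -1.36 ± 0.38 (SE, adjusted limma p 0.582). Pdyn, which encodes the opioid precursor prodynorphin, went from 9.92 ± 0.70 to 8.37 ± 1.04, or -1.55 ± 0.58 (SE, adjusted limma p 0.670). Pomc, the precursor of melanocortins and β-endorphin, was higher by 0.47 ± 0.10 (SE), and Nmb, which encodes neuromedin B, by 0.20 ± 0.08 (SE). Of these 4, Gal, Pdyn and Nmb also passed unadjusted on the processed scale, and Pomc did not. With the acinar mean as a covariate the log2 fold changes were -0.37 for Gal (unadjusted limma p 0.0955) and -0.70 for Pdyn (p 0.383).

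Among 13 hormone receptors, 2 passed the unadjusted threshold. Sstr3, a somatostatin receptor, was higher by 0.95 ± 0.32 (SE, adjusted limma p 0.638), and by 0.51 without control replicate 2. Glp1r, through which the gut product of Gcg acts on β-cells, was lower by 0.47 on the log2 scale (-0.47 ± 0.18, adjusted limma p 0.670). The glucagon receptor Gcgr (-0.34), the insulin receptor Insr (-0.07) and the ghrelin receptor Ghsr (0.02) did not pass.

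**Figure D5:**
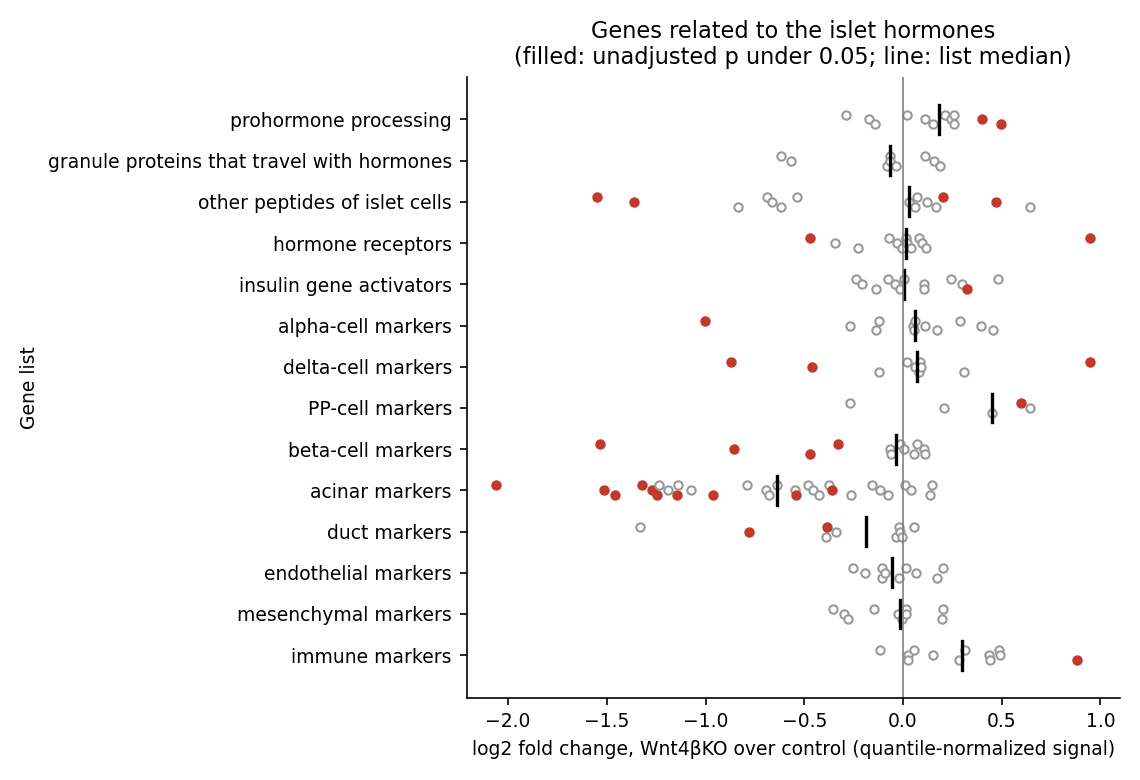
Log2 fold change, Wnt4βKO over control, of each tested gene of 14 lists on the quantile-normalized scale, with the list median as a black line and genes at an unadjusted limma p under 0.05 filled. The acinar list is shifted lowest, with a median of -0.64, and the medians of the granule, receptor and insulin activator lists lie between -0.06 and 0.01.

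Markers of the hormone-producing cells were set beside the hormones. Of 12 tested α-cell markers 1 passed unadjusted, the glutamine transporter Slc38a5 (-1.004 ± 0.252), while the α-cell regulator Irx1 (0.11) did not. Of 10 δ-cell markers 3 passed: Sstr3 higher, and Cd24a (-0.87) and Crhr1 (-0.46, and -0.28 without control replicate 2) lower. Of 5 tested PP-cell markers 1 passed, Folr1 (0.60 ± 0.22), and the list median was 0.45 against 0.01 over all genes. A dimmer Folr1 probe (A_52_P584335) did not pass, at 0.003 (unadjusted limma p 0.981). Of 12 β-cell markers 4 passed, all lower: the glucose transporter Slc2a2 (-1.54 ± 0.10, adjusted limma p 0.00877), the insulin-folding oxidase Ero1b (-0.86), Glp1r and the ion channel Trpm5 (-0.33). Slc2a2 was also past adjustment in 10 of 18 other settings, with adjusted limma p values from 0.00656 to 0.550.

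Markers of other cells were counted in the same way, and none passed adjustment. Of 31 tested acinar genes 27 had a negative fold change and 10 passed the unadjusted threshold, all lower, among them Cuzd1 (-2.06), Spink1 (-1.51), Rbpjl (-1.46) and Rnase1 (-1.32). With an array left out the 10 became 6 (without control replicate 2) to 18 (without Wnt4βKO replicate 2). The 4 brightest acinar genes, Cela3b, Ctrb1, Cela2a and Clps, had values of -0.36, 0.14, -0.16 and 0.14, and of -0.21, 0.04, -0.17 and 0.10 on the processed scale. Of 10 duct genes 2 passed, both lower: Muc1 (-0.78, and -0.52 without control replicate 4) and Cldn4 (-0.38, and -0.20 without control replicate 3). Of 12 immune genes 1 passed, H2-Ab1 (0.88 on its brightest probe). The other H2-Ab1 probes were at 0.31, 0.74 and 0.29 and did not pass. For endothelial genes 0 of 10 passed, and for mesenchymal genes 0 of 10. With the acinar mean as a covariate no hormone probe passed an unadjusted limma p of 0.05, and the log2 fold changes were 0.22 for Ins1, 0.04 for Gcg and -2.01 for Ghrl. The acinar mean was lower in every Wnt4βKO sample than in any control, so that fit cannot separate it from the genotype. The part of exocrine content in the hormone values was not tested otherwise.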

How the data were processed

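Islet RNA of 3 control and 4 Wnt4βKO samples was analysed. The authors deposited 1 scanner output per array (Feature Extraction 12.0.1.1 in the file headers, 9.1 in the submitters' processing notes), whose spot intensities are linear and not normalized between arrays. Per the study's methods 1 further control had been excluded on quality. Background was corrected with normexp (offset 50) on the median signal, followed by quantile normalization, as the methods state, and outlier spots were dropped, so that 65 values were missing. A probe was tested if at least 3 of the 7 arrays showed it well above background, which kept 26151 of 56605 and all 10 hormone probes. The model was limma's (version 3.58.1, R 4.3.3) with empirical Bayes variances, two-sided, taking Wnt4βKO minus control, and p was adjusted by Benjamini-Hochberg over every tested probe. The second scale was log2 of the processed intensity, already background-subtracted by the scanner software, over each array's 75th percentile. Python 3.11.15 and scipy 1.17.1 served for exact tests and summaries.

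Accessions gave gene names through RefSeq (GRCm38.p6) for 32994 probes (58.3%). The brightest probe represented a gene, and probe sequences were not analysed here. All hormone probes are given. From each related list at most 4 genes with the largest change at an unadjusted p under 0.05 were named, with the 3 genes most like each hormone (printed for Ghrl only), Wnt4 and the 4 brightest acinar genes; other genes of the lists were named after their values were seen. The members and lists were chosen with earlier results of these data known. Some genes of the lists are not reported here by name. The fitting script was tested on simulated data.

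A deposited log2 table of 36693 probes had column medians of 4.96 to 4.97 and no stated method, scale or centring. Only 1 of its 7 columns correlated best with its own scanner array (r over all pairs 0.834 to 0.863), so it was not used.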

Additional observations from a re-analysis of the deposited data

Results flagged for a closer look

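In 45 values examined over the 4 Wnt4βKO samples (the hormone probes, the ratios and the other named genes), 4 had 1 array whose gap to its nearest neighbour, as a share of the range, exceeded 0.829. Chance flags about 1 group in 20, or 2.25 of 45. The share was 1 for Ins2, whose quantile-normalized signal took only fixed values at the top of the scale, and 0.515 on the processed scale. It was 0.924 for Glp1r, where Wnt4βKO replicate 1 read 6.92 and the other 3 read 7.10 to 7.11, and 0.592 on the processed scale. It was 0.921 for H2-Ab1, an antigen-presentation gene, where replicate 4 read 11.76 and the others 10.55 to 10.64, and 0.872 on the processed scale. It was 0.873 for Clps, the acinar colipase gene, where replicate 1 read 15.26 and the others 14.88 to 14.93, and 0.370 on the processed scale. Ghrl was not among them: none of its Wnt4βKO arrays stood apart from the other 3 by that measure.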

How the results depend on the processing

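The count of hormone probes past an adjusted limma p of 0.05 was 0 in the reported fit and in all 18 other settings. The count past an unadjusted p was 1 (Ins1) as reported, 0 with the acinar covariate, cyclic loess, median scaling, an offset of 0, uncorrected background, the processed signal and a trended and robust variance, and 1 to 2 with an array left out (2 Ghrl probes and no Ins1 without Wnt4βKO replicate 1, and Gcg and Sst without control replicate 4). Of the related genes, 29 passed unadjusted as reported, 5 with the acinar covariate, 19 with median scaling and 20 to 36 with an array left out. Of all 26151 tested probes, 1821 passed unadjusted as reported, 615 with the acinar covariate and 766 with median scaling. With an array left out, 1430 to 2200 of all tested probes passed. For the related genes the count past adjustment, 1 as reported, was 0 with the acinar covariate, median scaling, the processed signal and the replicate block. It was 0 to 1 with an array left out.

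No direction that turned belonged to a value past adjustment. With cyclic loess the log2 fold change was -0.027 for Ins1, -0.096 for Ins2, -0.13 for Ppy, -0.086 for Pyy, -0.14 for Ctrb1 and -0.098 for Clps. With the acinar covariate it was -0.043 for Ins2, 0.044 for Gcg and -0.025 for Clps, and on the processed scale 0.14 for Sst. Blocks moved Ins2 to -1.32e-05 (replicate) and -1.19e-05 (slide row, chosen after seeing the data). With an array left out it ran from -0.041 to 0.059 for Ins2, -0.45 to 0.12 for Iapp, -0.0067 to 0.13 for Ppy and -0.044 to 0.17 for Pyy. The log2 ratio to Ins2, as a difference between groups, was -0.12 for Sst, -0.053 for Ppy and -0.022 for Pyy with normexp alone and -0.16 for Sst after quantile normalization. With an array left out it ran from -0.061 to 0.19 for Ins1, -0.39 to 0.12 for Iapp, -0.089 to 0.16 for Sst and -0.15 to 0.16 for Ppy. The cause of these turns was not tested.

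Replicate numbers are shared between the groups, but the correlations of same-numbered deviations were -0.13, 0.23 and -0.01, so the numbers were not taken to pair the samples. With the replicate block over the 3 shared numbers, Ghrl was -1.60 (unadjusted limma p 0.0218) and Ins1 0.25 (p 0.0612), and 1 hormone probe passed unadjusted.

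Ghrl could not be tested under a filter that asks for signal above background on all 7 arrays, and the mean over its 3 probes was -0.51. Ghrl signals of Wnt4βKO replicates 3 and 4 lay at or near background, so their order was not resolved, and the ceiling of quantile normalization limits Ins2 and Ins1.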
